A study of Mus musculus with 16 samples.

Results

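The lysosome gene set followed here held 48 genes, chosen by symbol from the 32989 genes of the deposited liver and kidney tables, and all 48 were found, each with 1 row. It was divided into 9 roles, namely the cysteine cathepsins with legumain (9 genes), the aspartic and serine peptidases (3), the glycosidases (13), the sulfatases (5), the lipid enzymes and sphingolipid activators (7), the sterol exporters (2), the membrane proteins (4), the acid phosphatases (3), and the regulator Tfeb with progranulin (2). Poly(A)-selected RNA of liver and kidney had been sequenced from male C57BL/6J mice aged 97 weeks. The 4 mice L63, L65, L86 and L104 had been kept in a light-dark cycle with lights on at 8 h and off at 20 h (LD). The 4 mice A75, A91, A94 and A115 had been kept for 85 weeks under chronic jet lag with an 8-hour advance of the light phase every 4 days (ADV), to ask what long-lasting circadian misalignment does to these organs. Organs of both groups were taken in the early dark phase, timed from the last light-on. The labels name no transgene or drug, and every group held whole tissue of 1 mouse per library, so that fewer cells of a type and less RNA per cell cannot be told apart.

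Lysosomes are acidic compartments in which proteins, glycans, sulfated sugars and lipids are taken apart by hydrolases, while membrane proteins such as LAMP1 and LAMP2 line the wall and NPC1 and NPC2 pass cholesterol out. Most of the soluble enzymes reach the lysosome through mannose 6-phosphate tags, and the proximal tubule of the kidney, the hepatocyte and the macrophage are all rich in lysosomes. Many of these genes share the transcription factor TFEB, which is held in the cytosol while mTORC1 is active and moves to the nucleus on starvation or on calcium release through the channel mucolipin 1, the product of Mcoln1. TFEB and related factors bind short sites around the core CACGTG, an E-box that CLOCK and BMAL1 also recognise.

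Because that core bears on both lysosomal and circadian control, promoter windows from RefSeq (GRCm38.p6) of 250 bases before to 50 bases after the start were searched for CACGTG, for TCACGTGA and for the 10-base palindrome known as the CLEAR element of lysosomal genes. All 3 are palindromes, so 1 search covers both strands, and each longer motif contains the shorter ones. Of the 48 genes, 43 had a window, and CACGTG was found in at least 1 window of 12 of them (27.9%), against 11.4% of the 11283 tested genes with a window and 7.15% of all 32851 windows. These 12 were Arsa, Ctsa, Ctsd, Ctsl, Gaa, Gla, Glb1, Lamp1, Lgmn, Mcoln1, Naglu and Sgsh. In 11 of the 12, all but Lgmn, the window nearest to the deposited start held it. TCACGTGA was found in 4 of the 43 (9.30%), namely Ctsa, Ctsd, Gla and Mcoln1, against 2.0% of the tested genes and 0.974% of all windows, and the CLEAR element in 0 of the 43, against 0.727% of the tested genes. A match is a run of letters and not a measured binding site. The 250 bases before the start are printed below for the 4 genes with the 8-base motif, for Lamp1, which had 4 copies of the core and was chosen after this was seen, and for Tfeb itself, which had none in this window. Capitals mark CACGTG or, where the flanks matched, TCACGTGA. The windows lie at chr8:3500269-3500518 on the plus strand for Mcoln1, at chr2:164833523-164833772 on the plus strand for Ctsa, at chr7:142387828-142388077 on the minus strand for Ctsd, at chrX:134601006-134601255 on the minus strand for Gla, at chr8:13158911-13159160 on the plus strand for Lamp1 and at chr17:47785494-47785743 on the plus strand for Tfeb.
Mcoln1: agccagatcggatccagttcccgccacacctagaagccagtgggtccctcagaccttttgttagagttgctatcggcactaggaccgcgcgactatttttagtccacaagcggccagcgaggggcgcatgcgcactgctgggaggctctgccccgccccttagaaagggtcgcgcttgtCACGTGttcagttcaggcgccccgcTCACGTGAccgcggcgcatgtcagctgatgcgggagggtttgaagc
Ctsa: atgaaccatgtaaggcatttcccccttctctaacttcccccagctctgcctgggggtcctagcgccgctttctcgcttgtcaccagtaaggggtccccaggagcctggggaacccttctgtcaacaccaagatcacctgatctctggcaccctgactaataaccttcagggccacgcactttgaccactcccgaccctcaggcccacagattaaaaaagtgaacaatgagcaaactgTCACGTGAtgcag
Ctsd: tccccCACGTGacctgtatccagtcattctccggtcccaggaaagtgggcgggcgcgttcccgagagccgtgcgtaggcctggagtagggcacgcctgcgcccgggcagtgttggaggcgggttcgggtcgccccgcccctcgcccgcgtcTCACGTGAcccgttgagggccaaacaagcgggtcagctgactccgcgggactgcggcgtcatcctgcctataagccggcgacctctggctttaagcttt
Gla: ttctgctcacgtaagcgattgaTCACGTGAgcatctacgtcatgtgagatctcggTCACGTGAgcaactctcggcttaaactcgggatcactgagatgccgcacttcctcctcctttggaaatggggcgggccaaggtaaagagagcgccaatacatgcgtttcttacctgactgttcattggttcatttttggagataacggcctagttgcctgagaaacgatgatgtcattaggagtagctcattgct
Lamp1: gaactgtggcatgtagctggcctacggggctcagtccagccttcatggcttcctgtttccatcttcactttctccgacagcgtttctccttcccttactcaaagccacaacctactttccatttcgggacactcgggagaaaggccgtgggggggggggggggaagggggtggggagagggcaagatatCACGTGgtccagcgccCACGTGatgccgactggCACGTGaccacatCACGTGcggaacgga
Tfeb: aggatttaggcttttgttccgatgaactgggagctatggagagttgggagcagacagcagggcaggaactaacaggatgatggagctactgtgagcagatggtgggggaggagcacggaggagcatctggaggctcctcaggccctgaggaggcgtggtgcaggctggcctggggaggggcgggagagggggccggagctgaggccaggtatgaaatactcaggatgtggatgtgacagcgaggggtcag

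The RefSeq start for Ctsd lies 43 bases from the deposited one, and the other 5 starts are the deposited ones. A second copy of the core in Ctsa lies just after the start and is not printed.

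The livers had between 21092501 and 24285055 fragments on genes and the kidneys between 15688495 and 18043306, and every ADV liver library was smaller than every LD one. Values are FPKM, that is fragments per kilobase of exon scaled to the depth of the library, as deposited, and 1 fragment in 1 kb of exon was worth 0.0380 to 0.0440 FPKM in the livers and 0.0508 to 0.0584 in the kidneys. Differences were tested on the log2(FPKM + 0.1) scale with limma over all genes that passed a filter on low values, with Benjamini-Hochberg adjustment, and all 48 genes passed in both organs. The organ labels were checked against markers. 8 hepatocyte genes summed to between 59072 and 72753 FPKM in the livers and to 1314 at most in the kidneys, and 8 proximal tubule genes to between 20096 and 46648 FPKM in the kidneys and to 0.128 at most in the livers. A pair of libraries stood apart. Liver A94 had a mean correlation of 0.941 with the other livers, and kidney A115 one of 0.858 with the other kidneys, with 33.8% of its fragments on mitochondrial genes, where the other kidneys had 9.43% to 18.02%. Results that rest on them are given with and without them.

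In the LD mice the genes spanned a wide range of levels. In the liver Lamp1 was highest with 296 ± 10.3 FPKM (SD, n = 4), followed by Lamp2 with 184 ± 10.5 and Ctsd, the aspartic peptidase cathepsin D, with 178 ± 7.20. Lamp1 lay well above the other 2, whose levels did not differ beyond their spread. In the kidney Lamp1 was again highest with 559 ± 56.8, followed by Psap, the precursor of the saposins that present sphingolipids to their hydrolases, with 438 ± 61.5 and Lgmn, the asparaginyl endopeptidase legumain, with 330 ± 45.7. At the low end, Ctsk, the collagen-degrading cathepsin K, had 0.709 ± 0.0765 FPKM in the liver, and Idua, which cleaves iduronic acid from heparan and dermatan sulfate, had 1.59 ± 0.297 in the kidney. The 4 LD mice were close to one another, with a median coefficient of variation over the 48 genes of 9.47% for liver and 9.95% for kidney. The 4 ADV mice were more spread, at 20.6% and 39.7%. Without A94 the value for the 3 remaining ADV livers was 11.96%, and without A115 that for the 3 remaining ADV kidneys was 13.3%.

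**Figure D1:**
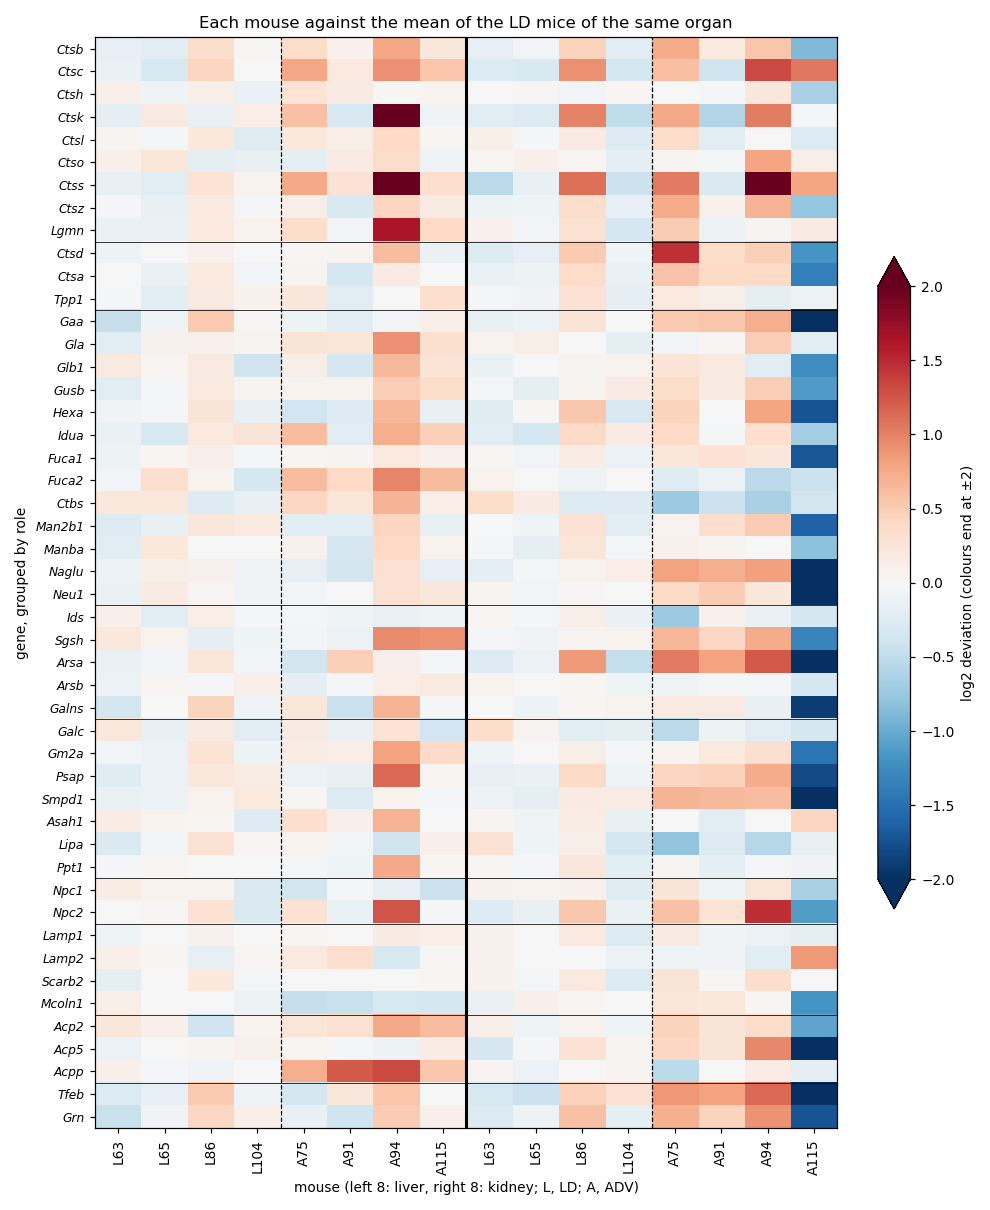
The log2 deviation of each gene (rows, grouped by role, on the log2(FPKM + 0.1) scale) in each mouse (columns, 8 livers then 8 kidneys) from the mean of the LD mice of that organ, where an LD mouse is set against the other 3. Liver A94 was above the LD mean for 40 of the 48 genes and kidney A115 for 7 of the 48.

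In the liver, none of the 48 genes passed the test between ADV and LD. The genes of the set that came closest were mostly higher in the ADV mice, among them the acid phosphatases Acpp and Acp2, the fucosidase Fuca2 and the cathepsins Ctss and Ctsc, while the calcium channel gene Mcoln1 was lower in every ADV mouse than in any LD mouse. With limma at an adjusted p under 0.05, 0 of the 48 were called, where 1 of 12835 genes was called in all (0.00779%). At an unadjusted p under 0.05 there were 10 of the 48, 9 higher and 1 lower, where 8.65% of all genes tested were higher and 3.13% lower at that threshold. With limma-voom on the recovered fragments 0 were called and 9 had an unadjusted p under 0.05. Of the 48, 36 had a higher mean of log2 values in the ADV livers, and all counts of genes with a higher mean are meant in this sense. The median log2 difference was 0.11 where that of all genes was 0.10, and 65.7% of all genes were higher. After scaling by the median ratio 25 of the 48 were higher, with a median of 0.00. Without A94 the median was 0.04, with 28 of the 48 higher. After quantile normalization 32 of the 48 were higher, with a median of 0.07, where 45.7% of all genes were, with a median of -0.03. With the GC trend described below removed, the median was 0.05 for the set and 0.01 for all genes. The median of the set thus lay close to that of all genes in FPKM, and less so after quantile normalization. Single members are described next. Of the 48, 5 were higher in all ADV than in all LD livers (Acp2, Acpp, Ctss, Fuca2 and Gla), where 6.94% of all genes were, and 1 was lower in the same way.

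**Figure D2:**
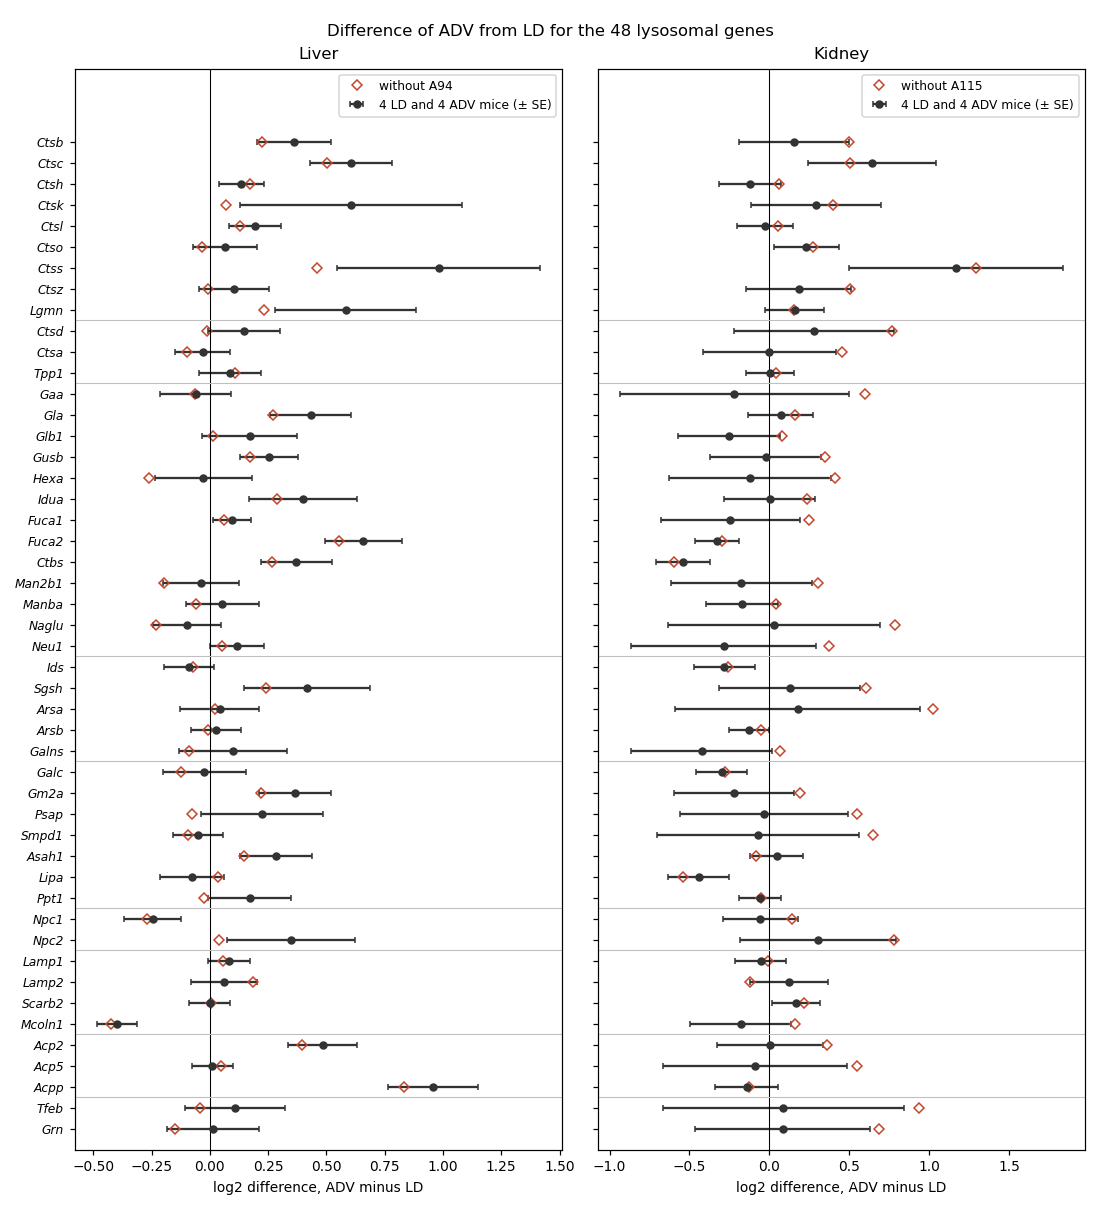
The log2 difference of ADV from LD for the 48 genes in liver (left) and kidney (right), by role from the cathepsins at the top to Tfeb and Grn at the bottom. Filled points with bars are the limma estimates ± SE over 4 and 4 mice, and open diamonds are the estimates without A94 in the liver and without A115 in the kidney, where most of the shifted diamonds lie to the right.

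Mcoln1 (chr8:3500519-3515232, plus strand, mm10) encodes mucolipin 1, the lysosomal channel whose calcium release feeds back on TFEB, and its promoter is the first of those printed above. It measured 13.7, 12.9, 12.9 and 12.3 FPKM in the livers of L63, L65, L86 and L104 and 9.35, 9.44, 10.3 and 10.1 in those of A75, A91, A94 and A115. The highest ADV mouse lay below the lowest LD mouse, and neither group had a mouse far from the rest. The log2 difference was -0.40 ± 0.09 (SE), with an unadjusted p of 0.00113 and an adjusted p of 0.269 in limma, and the two-sided exact permutation test gave the smallest p that 4 against 4 mice allow, 0.0286. That p follows from the lack of overlap alone, here and for the other genes without overlap, and adds nothing to it. Mcoln1 was the 1 gene of the 48 that was lower without overlap, where 1.89% of all genes tested were. The difference lay between -0.52 and -0.37 under the alternatives run, with an adjusted p between 0.123 and 0.780. Tfeb was not lower beside it. It measured 2.15, 2.27, 3.28 and 2.38 FPKM in the LD livers and 1.93, 2.92, 3.72 and 2.47 in the ADV livers, and the groups overlapped widely. Its log2 difference was 0.11 ± 0.21 (limma adjusted p = 0.838). Of the other membrane proteins, Lamp1 measured 282.7, 295.2, 308.0 and 296.3 FPKM in the LD livers and 303.5, 294.1, 330.0 and 325.6 in the ADV livers. Lamp2 measured 194.5, 185.9, 169.7 and 187.7 FPKM in LD and 211.3, 233.5, 147.8 and 187.0 in ADV, with A94 lowest of all. Both pairs of groups overlapped, and the log2 differences of Lamp1, Lamp2 and Scarb2, the receptor that carries glucocerebrosidase to the lysosome, were 0.08, 0.06 and 0.00.

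The acid phosphatases, which remove phosphate groups in the lysosome, held the largest relative difference outside the cathepsins. Acpp (chr9:104288240-104337722, minus strand), the prostatic acid phosphatase, measured 1.09, 1.01, 0.990 and 1.03 FPKM in the LD livers and 1.78, 2.55, 2.74 and 1.55 in the ADV livers. All 4 ADV mice were above all 4 LD mice, and the LD mice were nearly equal. The log2 difference was 0.96 ± 0.19, with an unadjusted p of 0.000707 and an adjusted p of 0.243 in limma (exact permutation p = 0.0286). Acp2, the lysosomal acid phosphatase proper, measured 10.1, 9.51, 7.32 and 9.37 FPKM in LD and 10.7, 11.2, 15.3 and 13.9 in ADV, again without overlap. Its log2 difference was 0.48 ± 0.15 (limma adjusted p = 0.326, exact permutation p = 0.0286). Acp5, the tartrate-resistant phosphatase of osteoclasts and macrophages, was level, with 67.8 ± 3.14 FPKM in LD and 68.4 ± 5.09 in ADV.

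**Figure D3:**
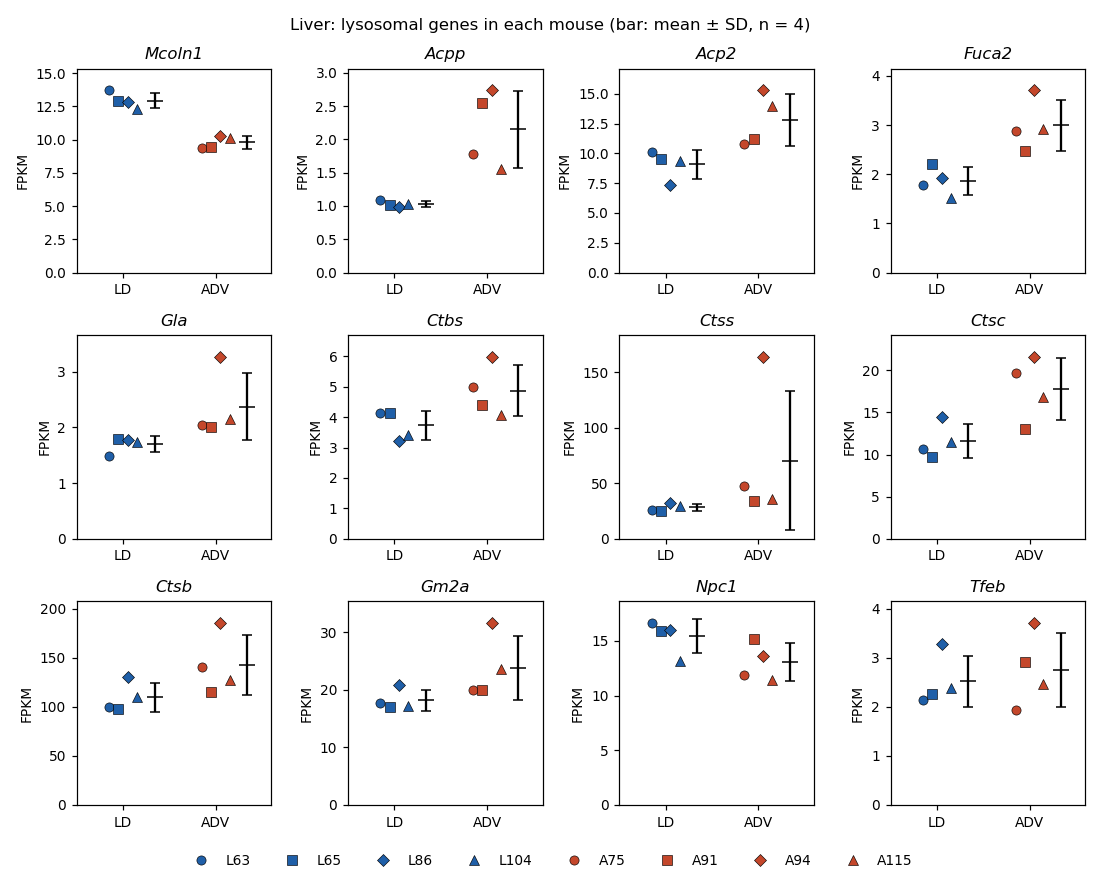
FPKM of 12 genes in each liver, with LD mice in blue and ADV mice in red, a symbol for each mouse and the mean ± SD (n = 4) at the right of each group. Mcoln1 is lower in all 4 ADV mice (9.35 to 10.3) than in the LD mice (12.3 to 13.7), Acpp, Acp2, Fuca2, Gla and Ctss are higher without overlap, and A94 is the highest ADV mouse in every panel but that of Npc1.

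Among the 9 cysteine cathepsins and legumain, all 9 had a higher mean in the ADV livers, with a median log2 difference of 0.36 and a range from 0.07 to 0.98, and 3 had an unadjusted p under 0.05 without any passing the adjusted test. After scaling by the median ratio 8 of the 9 were higher, and without A94 7 of the 9, with a median of 0.17. Ctss, the cathepsin of antigen-presenting cells, measured 25.9, 25.2, 32.5 and 29.2 FPKM in LD and 47.3, 34.4, 163.9 and 35.5 in ADV. The groups did not overlap, but A94 was far above the other 3 ADV mice. The log2 difference was 0.98 ± 0.44 (limma adjusted p = 0.422, exact permutation p = 0.0286), and without A94 it was 0.46. Ctsc, the dipeptidyl peptidase that activates granule proteases of immune cells, measured 10.7, 9.72, 14.4 and 11.52 FPKM in LD and 19.6, 13.1, 21.6 and 16.8 in ADV. Only A91 lay within the LD range, and the log2 difference was 0.60 ± 0.18 (limma adjusted p = 0.311, exact permutation p = 0.0571), or 0.50 without A94. Ctsb, the widely expressed cathepsin B, measured 100.1, 97.9, 130.6 and 110.1 FPKM in LD and 140.8, 115.1, 185.5 and 127.6 in ADV, so that A91 and A115 lay below the highest LD mouse. Its log2 difference was 0.36 ± 0.16 (limma adjusted p = 0.419, exact permutation p = 0.0857), or 0.23 without A94. Lgmn and Ctsk were at 74.8 and 3.64 FPKM in A94, where the other ADV livers had at most 31.7 and 1.11.

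Of the 13 glycosidases, which trim sugars from glycoproteins, glycolipids and glycosaminoglycans, 9 had a higher mean of log2 values in the ADV livers. After scaling by the median ratio 7 did. Without that scaling 3 had an unadjusted p under 0.05. Fuca2 (chr10:13501028-13517275, plus strand), a fucosidase that is also secreted, measured 1.78, 2.20, 1.91 and 1.52 FPKM in LD and 2.88, 2.47, 3.70 and 2.92 in ADV, without overlap. The log2 difference was 0.66 ± 0.16 (limma adjusted p = 0.296, exact permutation p = 0.0286). Gla, the alpha-galactosidase that is lost in Fabry disease, measured 1.49, 1.78, 1.78 and 1.74 FPKM in LD and 2.04, 2.02, 3.27 and 2.15 in ADV. Its groups did not overlap either, and the log2 difference was 0.43 ± 0.18 (limma adjusted p = 0.398), or 0.27 without A94. Ctbs, the chitobiase that splits the core of N-glycans, measured 4.15, 4.14, 3.21 and 3.41 FPKM in LD and 4.99, 4.40, 5.99 and 4.08 in ADV, so that only A115 lay among the LD mice. Its log2 difference was 0.37 ± 0.15 (limma adjusted p = 0.399). Naglu, which acts on heparan sulfate and is lost in Sanfilippo syndrome B, had the third lowest difference of the set, -0.10 ± 0.15, or -0.23 without A94, with LD mice at 7.52, 8.49, 8.36 and 7.70 FPKM and ADV mice at 7.14, 6.16, 9.93 and 7.16.

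Among the 7 lipid enzymes and activators, 4 had a higher mean, and 1, Gm2a, the activator that hands ganglioside GM2 to hexosaminidase A, had an unadjusted p under 0.05. It measured 17.6, 17.1, 20.9 and 17.2 FPKM in LD and 20.0, 19.9, 31.6 and 23.6 in ADV, with a log2 difference of 0.36 ± 0.15 (limma adjusted p = 0.412), or 0.22 without A94. The single LD mouse L86 reached into the ADV range. The sterol exporters had differences of opposite sign. Npc1, the membrane protein of cholesterol export, measured 16.6, 15.9, 15.9 and 13.2 FPKM in LD and 11.9, 15.2, 13.7 and 11.4 in ADV, a log2 difference of -0.25 ± 0.12 (limma adjusted p = 0.451) with overlap at L104. Npc2, its soluble partner, had a difference of 0.35 ± 0.27, or 0.04 without A94. Ctsd measured 168.9, 177.3, 186.4 and 179.2 FPKM in LD and 183.5, 184.1, 272.9 and 162.9 in ADV, where A94 was highest and A115 lowest of all. None of the 3 peptidases Ctsd, Ctsa and Tpp1, the 5 sulfatases and progranulin (Grn) had an unadjusted p under 0.05, and their log2 differences lay between -0.09 and 0.42.

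No marker gene of other cells passed limma's adjusted test between ADV and LD livers (0 genes in each list), and their levels are given beside those of the lysosomal genes. Of 14 macrophage genes, none of which is in the set, 13 had a higher mean in the ADV livers, 7 of them with an unadjusted p under 0.05 (0 of the 10 lymphocyte genes), with a median log2 difference of 0.83, or 0.42 without A94. Their summed level was 219 to 297 FPKM in LD, and 362, 293, 911 and 299 FPKM in A75, A91, A94 and A115. For 6 Kupffer cell genes the sum was 82.0 to 119 FPKM in LD and 117 to 406 in ADV, for 8 fibroblast and stellate cell genes 123 to 140 and 168 to 365, and for 10 lymphocyte genes 5.70 to 11.53 and 6.48 to 699, in each case with A94 highest. At an unadjusted p under 0.05 in limma, 3 Kupffer cell genes and 5 fibroblast and stellate cell genes were higher, where 8.65% of all genes were. No gene of these 4 lists was at 0 throughout a group of livers. The 8 hepatocyte genes had a median log2 difference of -0.13. A94 was also the highest of the 8 livers for 35 of the 48 lysosomal genes, and the part of these cells in the lysosomal values was not tested. Without A94 the log2 differences of Mcoln1 and Acpp were -0.42 and 0.83.

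Of 117 tested genes in 6 further lists of lysosomal and related genes, 10 were higher and 1 lower at an unadjusted p under 0.05 in the liver, where 8.65% and 3.13% of all genes were. Of 18 tested subunits of the V-ATPase, the proton pump that acidifies the lysosome, 3 had an unadjusted p under 0.05, all higher, with a median log2 difference of 0.11, or 0.028 without A94, and the one of smallest p was Atp6v1a at 0.29 ± 0.11 (limma adjusted p = 0.382). Of 26 further hydrolases and activators 2 were higher at that threshold (Smpdl3a at 0.26 and Ctse at 1.55), among 24 further membrane proteins Tpcn1, a calcium-permeable channel of endolysosomes, was lower at -0.43, and of 21 genes of enzyme sorting none. Of 24 genes of the TFEB family and its control 3 were higher, among them Tfec, a TFEB relative of macrophages, at 1.11 ± 0.35 (limma adjusted p = 0.342) and Rragd at 0.49. Of 4 tested cathepsin inhibitors 1 was higher, Serpinb6a at 0.63. None of these 117 genes passed the adjusted test, and 83 of them had a higher mean in the ADV livers.

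In the kidney, none of the 48 genes passed the test over all 8 mice either, and the 3 that came closest, Ctbs, Fuca2 and Lipa, were lower in the ADV kidneys. Limma called 0 of the 48 and 0 of 14452 genes (0%) at an adjusted p under 0.05, and 3 of the 48, all lower, had an unadjusted p under 0.05, where 1.35% of all genes were lower and 1.75% higher at that threshold. Limma-voom gave the same counts, 0 and 3. The median log2 difference of the 48 was -0.03, and that of all genes was -0.02. Here the result turned on 1 library. A115 was the lowest of the 8 kidneys for 31 of the 48 genes, and without it 13 of the 48 were called, 11 higher and 2 lower in ADV, as were 18.8% of all 14475 genes tested (16.1% higher and 2.68% lower). The median of the 48 was then 0.24, against 0.20 for all genes, so that the set again lay near the middle of the whole. Scaling by the median ratio without A115 gave 9 called, 6 higher and 3 lower, where 16% of all genes were called. Without both A94 and A115, 4 were called, all 4 higher, where 4.7% of all genes were.

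Ctbs measured 27.5, 24.7, 19.7 and 19.8 FPKM in the kidneys of L63, L65, L86 and L104 and 13.7, 16.8, 14.5 and 17.6 in those of A75, A91, A94 and A115. No ADV mouse reached the lowest LD mouse. The log2 difference was -0.54 ± 0.17, with an unadjusted p of 0.0121 and an adjusted p of 0.9999 in limma (exact permutation p = 0.0286), and without A115 it was -0.60 with an adjusted p of 0.0267. Fuca2 measured 130.4, 125.0, 121.2 and 126.3 FPKM in LD and 105.7, 116.2, 87.5 and 93.0 in ADV, also without overlap. Its log2 difference was -0.33 ± 0.14 (limma adjusted p = 0.9999, exact permutation p = 0.0286). Ctbs and Fuca2 were the 2 of the 48 that were lower without overlap, where 1.83% of all genes were, and 0 of the 48 were higher without overlap, where 0.962% were. Lipa, the acid lipase that frees cholesterol and fatty acids from lipoproteins, measured 151.2, 123.9, 137.4 and 108.3 FPKM in LD and 74.7, 107.8, 86.6 and 116.8 in ADV. Only A115 lay within the LD range, and the log2 difference was -0.44 ± 0.19 (limma adjusted p = 0.9999), or -0.54 with an adjusted p of 0.0432 without it.

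Fuca2 thus had its ADV mice above the LD mice in the liver and below them in the kidney. The difference between the organs' log2 differences was 0.99 ± 0.20, with an unadjusted p of 0.00022 and an adjusted p of 0.792 in limma, and no gene of the 48 or of all 14379 passed that test (0%). The others of the 48 with an unadjusted p under 0.05 were Acpp at 1.10 ± 0.27 and Ctbs at 0.91 ± 0.23, where 3.1% of all genes had a larger and 0.626% a smaller value in the liver at that threshold. With limma-voom 0 were called and 3 had an unadjusted p under 0.05. Without A115, limma called Fuca2 (0.96, adjusted p = 0.0302), Acpp (1.23, adjusted p = 0.0280) and Ctbs (1.05, adjusted p = 0.0277) with a larger value in the liver and Mcoln1 (-0.57, adjusted p = 0.0294), Smpd1 (-0.71, adjusted p = 0.0294) and Naglu (-0.86, adjusted p = 0.0324) with a larger value in the kidney, as it did 2.88% of all genes, 0.57% with a larger value in the liver and 2.31% with a larger one in the kidney. With the GC trend described below removed as well, 0 of the 48 and 0% of all genes were called.

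Without A115, 14 of the 48 were higher and 3 lower in all ADV than in all LD kidneys, where 24.8% and 8.06% of all genes were. The 11 genes called higher in the 3 remaining ADV kidneys were chosen for the text after their values had been seen, and spanned several roles, namely the glycosidases Gaa, Naglu and Neu1, the sulfatases Arsa and Sgsh, the lipid genes Smpd1 and Psap, the peptidase Ctsa, the phosphatase Acp2, and Tfeb and Grn. Tfeb measured 4.21, 3.99, 6.36 and 5.84 FPKM in the LD kidneys and 9.21, 8.77, 11.1 and 0.830 in the ADV kidneys. A75, A91 and A94 were above all LD mice and A115 below all of them. Its log2 difference was 0.09 ± 0.76 with A115 (limma adjusted p = 0.9999) and 0.93 without it (adjusted p = 0.0173). Gaa, the acid maltase that breaks down lysosomal glycogen, measured 18.3, 18.7, 22.9 and 19.7 FPKM in LD and 28.7, 29.0, 32.8 and 3.01 in ADV, and Smpd1, the acid sphingomyelinase, 23.7, 22.8, 27.5 and 27.2 in LD and 40.3, 39.7, 38.8 and 5.29 in ADV. Both show the same split, with A115 below all LD mice and the other 3 ADV mice above all of them. Naglu measured 16.6, 15.8 and 16.8 FPKM in A75, A91 and A94 and 1.92 in A115, where the LD kidneys had 8.63 to 10.1. Mcoln1 measured 18.3, 20.7, 19.9 and 19.5 FPKM in LD and 23.3, 22.6, 19.8 and 8.52 in ADV, with a log2 difference of -0.18 ± 0.31, or 0.16 without A115.

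These deviations moved with the base composition of the transcripts. GC content was taken from GENCODE M21 transcripts matched to the genes by length, and ran from 37.8% in Asah1 to 60.7% in Tfeb, with a median of 51.0%. Across the 48 genes, which share their libraries and are not independent, the Spearman correlation of GC content with the deviation from the LD mean was 0.61, 0.77 and 0.46 in the kidneys of A75, A91 and A94 and -0.83 in that of A115. Over all 13910 tested genes with a GC value it was 0.63, 0.60, 0.52 and -0.72. In the LD kidneys it lay between -0.57 and 0.41 over the 48 genes. In A115 the 24 genes above the median GC content had a median deviation of -1.67 and the 24 others one of -0.19. The 11 genes called higher without A115 had GC contents of 47.2% to 60.7% and a median of 56.1%, and the 2 called lower, Ctbs and Lipa, had 38.5% and 45.5%. When the trend with GC content was removed from each library, limma called 0 of the 48 and 0 of 13929 genes (0%) without A115, and 11 of the 48 had an unadjusted p under 0.05, where 18.8% of all genes did. On that scale Tfeb had a log2 difference of 0.19 (limma adjusted p = 0.427), Gaa one of -0.04, Naglu one of 0.09 and Smpd1 one of 0.19, and Ctbs and Lipa, no longer called (limma adjusted p = 0.196 and 0.163), had -0.36 and -0.50. Of the 11 genes called higher before, Arsa and Acp2 kept the largest differences, 0.51 and 0.34 (limma adjusted p = 0.240 and 0.111). Acp2 had 0.36 before the removal and Arsa 1.02. The others of the 11 lay between -0.04 and 0.20. In the livers the correlation lay between -0.54 and -0.15 in the ADV mice over the 48 genes, and Mcoln1 had a log2 difference of -0.45 and Acpp one of 0.85 with the trend removed.

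**Figure D4:**
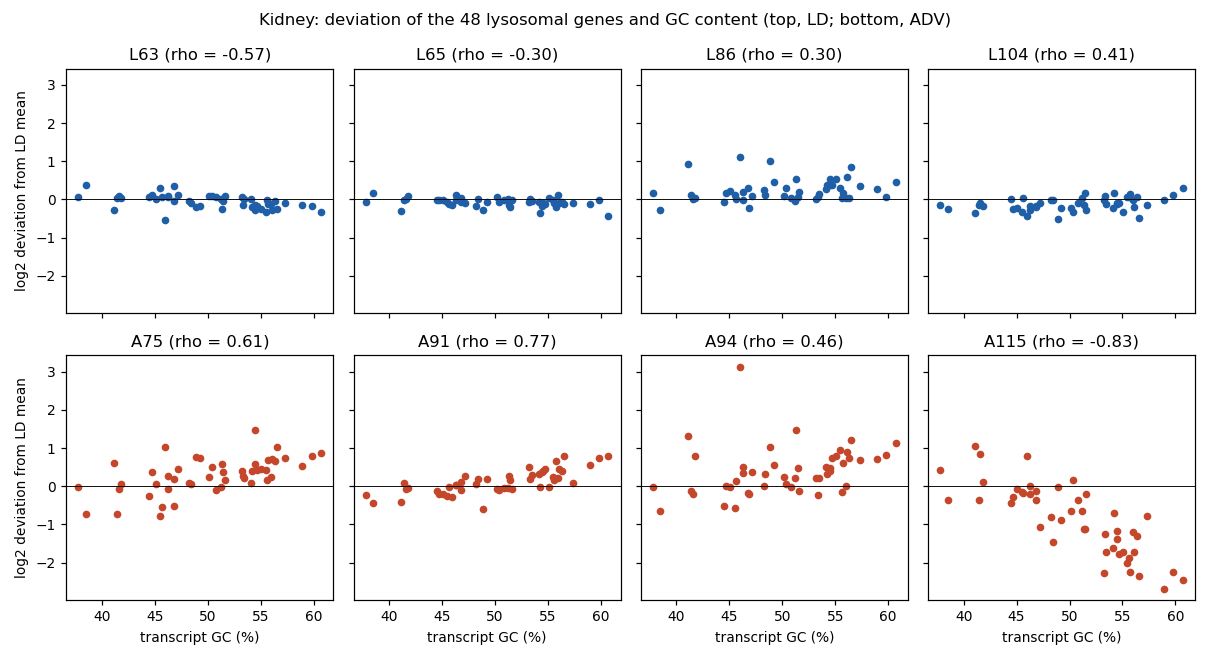
The log2 deviation of the 48 genes from the LD mean (vertical axis) against the GC content of the transcript (horizontal axis, %) in each kidney, LD mice above and ADV mice below, with the Spearman rho of each panel. The points rise with GC content in A75, A91 and A94 (rho 0.61, 0.77 and 0.46) and fall in A115 (rho -0.83).

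The members with the largest log2 differences in the kidney over all 8 mice were otherwise Ctss, Ctsc and Npc2 on the higher side and Galns on the lower. Ctss measured 17.4, 21.5, 41.3 and 18.5 FPKM in LD and 47.6, 18.9, 204.1 and 39.9 in ADV, with a difference of 1.17 ± 0.67 (limma adjusted p = 0.9999). A91 and A115 lay below L86, and A94 was again far above the rest, so that the difference was 0.51 without it. Ctsc measured 3.95, 3.87, 7.41 and 3.78 FPKM in LD and 6.98, 3.43, 11.47 and 9.57 in ADV, a difference of 0.64 ± 0.40, or 0.42 without A94. Npc2 measured 23.4, 24.7, 35.2 and 24.8 FPKM in LD and 39.9, 32.3, 74.3 and 12.2 in ADV, a difference of 0.30 ± 0.49 that was -0.09 without A94. Galns, a sulfatase of keratan sulfate, measured 42.2, 40.5, 43.5 and 44.0 FPKM in LD and 47.99, 47.99, 38.2 and 11.4 in ADV, with A115 far below the rest, and its difference of -0.42 ± 0.44 became 0.06 without A115. The most abundant genes had smaller log2 differences. Lamp1 measured 584.6, 554.3, 615.4 and 482.8 FPKM in LD and 629.1, 528.4, 512.7 and 484.5 in ADV, a difference of -0.06 ± 0.16. Psap measured 399.3, 406.9, 529.8 and 416.4 FPKM in LD and 589.3, 599.1, 730.1 and 126.2 in ADV, a difference of -0.03 ± 0.53, or 0.55 without A115 (limma adjusted p = 0.0330). In Psap, as in Tfeb, A115 lay below every LD mouse and the other ADV mice above. Lgmn measured 341.4, 317.2, 385.1 and 276.0 FPKM in LD and 465.9, 305.0, 341.4 and 368.6 in ADV, a difference of 0.16 ± 0.19. Lamp2 and Asah1, a pair with GC contents of 41.6% and 37.8%, were highest in A115, at 443.0 and 72.4 FPKM, where the other kidneys had at most 255.7 and 57.9.

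The 14 macrophage genes summed to 103 to 301 FPKM in the LD kidneys, with L86 highest, and to 417, 137, 843 and 108 FPKM in A75, A91, A94 and A115. All 14 had a higher ADV mean, with a median log2 difference of 0.79, or 0.23 without A94, and none had an unadjusted p under 0.05. The sums were highest in A94, A75 and L86, as was Ctss, whereas A115 had a low sum and a Ctss level close to that of L86. The 8 proximal tubule genes summed to 28952 to 41973 FPKM in LD, and to 20096, 32026, 23032 and 46648 in A75, A91, A94 and A115, most of it from Kap, the kidney androgen-regulated protein. Without Kap the order was different, with 2486 to 3035 FPKM in LD and 3502, 3922, 3432 and 726 in A75, A91, A94 and A115, so that A115 was far the lowest. Miox, Slc34a1, Slc22a6, Slc5a2, Lrp2 and Cubn were below every LD kidney in A115. Slc5a12 went the other way, at 111 FPKM in A115, where LD had 69.9 to 81.6. No gene of either list was at 0 throughout a group of kidneys. The 10 lymphocyte genes summed to 34.2 to 49.7 FPKM in LD and 15.3 to 555 in ADV, and the 8 fibroblast genes to 45.7 to 78.9 and 53.3 to 165. Of these 8 fibroblast genes, 3 had an unadjusted p under 0.05 in limma, all 3 higher, where 1.75% of all genes were. The 7 genes of the distal nephron and collecting duct summed to 1901 to 2458 FPKM in LD and to 3048, 2305, 2311 and 1261 in A75, A91, A94 and A115, and the 5 podocyte genes to 66.1 to 71.3 in LD and to 81.9, 73.2, 76.1 and 49.2, so that A115 was lowest for both, though among the podocyte genes not without Podxl (32.2 FPKM, where LD had 28.6 to 32.6). The distal nephron genes did not all move alike in A115. Umod, Slc12a3, Aqp2 and Hsd11b2 were below every LD kidney there. Slc12a1 and Calb1 lay within the LD range, and Atp6v1g3 was above it (19.0 FPKM, where LD had 13.0 to 15.9). The Kupffer cell genes summed to at most 6.55 FPKM, and 1 of the 6 was at 0 throughout each group. The part of these cells in the lysosomal values was not tested. Of the 121 tested genes of the other lysosomal lists, 1 had an unadjusted p under 0.05 in the kidney, Rnaset2a at 2.08 ± 0.34, whose reads may be shared with the near-identical Rnaset2b, where 1.75% of all genes were higher at that p. Without A115 28 of the 121 were called, of which 24 were higher, where 18.8% of all genes were called and 16.1% called higher, and 0 after removal of the GC trend.

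The set differed far more between the organs than between the conditions. Over the 16 libraries, limma called 35 of the 48 genes, 27 higher in the kidney and 8 higher in the liver, where 74.5% of all 14379 genes were called, 61.5% higher in the kidney and 13.1% higher in the liver. The median log2 difference of liver from kidney was -0.66 for the set and -0.74 for all genes, and scaling by the median ratio moved the latter to -0.01. With that scaling 33 of the 48 were called, 16 higher in the kidney and 17 in the liver, where 65.2% of all genes were called, 33.6% higher in the kidney and 31.6% in the liver. There were 16 genes called higher in the kidney and 8 called higher in the liver with both scalings, and no gene was called in opposite directions. With the mouse as a replicate block, since both organs came from the same animals, 36 were called, and the added gene was Ctsd with an adjusted p of 0.0464 in place of 0.0693.

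**Figure D5:**
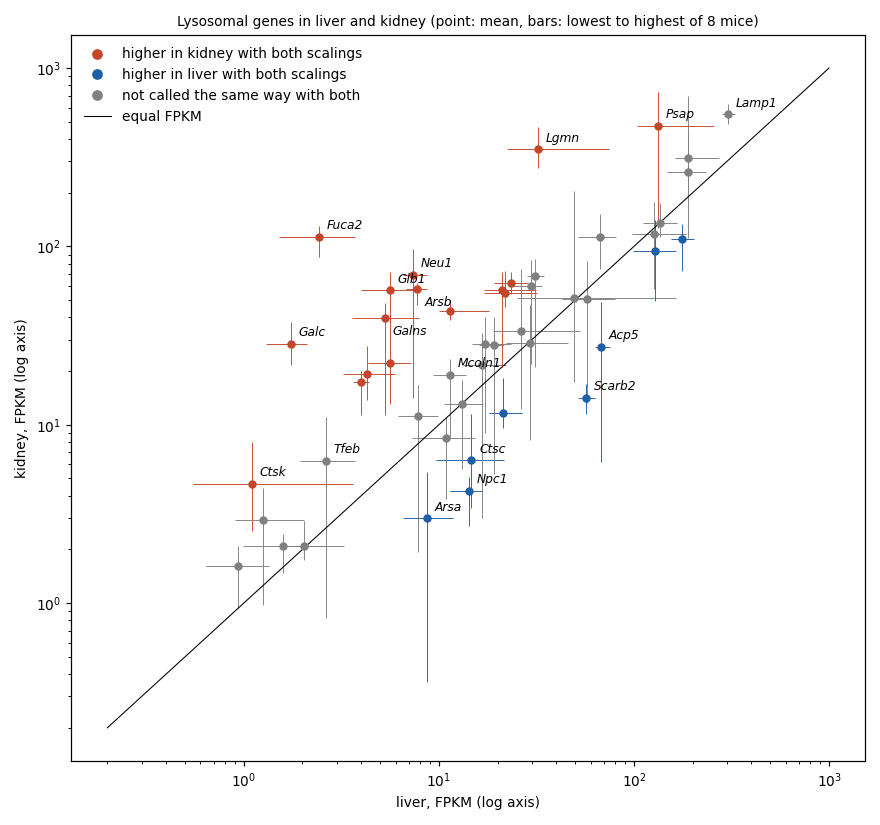
Mean FPKM of the 48 genes in the liver (horizontal, log axis) and the kidney (vertical, log axis), with bars from the lowest to the highest of 8 mice and a line of equal FPKM. Fuca2, Galc and Lgmn lie farthest above the line (113, 28.5 and 350 FPKM in the kidney against 2.42, 1.74 and 32.2 in the liver), and Scarb2, Arsa and Npc1 farthest below it.

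The largest excess in the kidney was that of Fuca2, at 87.5 to 130.4 FPKM in 8 kidneys and 1.52 to 3.70 in 8 livers, a ratio of means of 46.7. The log2 difference of liver from kidney was -5.53 ± 0.10 (limma adjusted p = 3.1e-16), or -4.76 after scaling by the median ratio. Galc, which removes galactose from the myelin lipid galactosylceramide, was at 21.7 to 37.6 FPKM in the kidneys and 1.30 to 2.12 in the livers, with a log2 difference of -3.96 ± 0.12 (limma adjusted p = 1.02e-13). Lgmn was at 276 to 466 FPKM in the kidneys and 22.4 to 74.8 in the livers, with a log2 difference of -3.55 ± 0.19 (limma adjusted p = 1.71e-10). None of these 3 overlapped between the organs. Other genes several times higher in the kidney, named after their values were seen, were the beta-galactosidase Glb1 with a ratio of means of 10.1, the sialidase Neu1 with 9.37, and the sulfatases Galns and Arsb with 7.49 and 7.42. Neu1 and Glb1 form a complex with cathepsin A, whose gene Ctsa had a ratio of 2.02 and was not called after scaling by the median ratio.

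In the liver the largest excess was that of Scarb2, at 51.4 to 63.2 FPKM in 8 livers and 11.5 to 17.0 in 8 kidneys, with a log2 difference of 2.01 ± 0.08 (limma adjusted p = 5.38e-12). Arsa, the arylsulfatase of sulfatide breakdown, was at 6.52 to 11.8 FPKM in the livers and 0.360 to 5.41 in the kidneys, with a log2 difference of 1.79 ± 0.41 (limma adjusted p = 0.00112), or 1.38 without A115. Npc1 was at 11.4 to 16.6 FPKM in the livers and 2.71 to 5.12 in the kidneys, with a log2 difference of 1.73 ± 0.13 (limma adjusted p = 8.84e-09). The 2 sterol exporters differed in this, since Npc2 had a log2 difference of -0.25 ± 0.30 (limma adjusted p = 0.461), or 0.52 (adjusted p = 0.0469) after scaling by the median ratio. The other 5 genes higher in the liver with both scalings were Acp5 and the cathepsin genes Ctsc, Ctsh, Ctso and Ctsz, with log2 differences from 0.50 to 1.49. Ctsl, Gla, Gusb, Hexa and Ctsb had log2 differences of 0.01, -0.06, 0.06, 0.13 and 0.15 in FPKM and were called higher in the liver after scaling by the median ratio. Tfeb was at 2.64 FPKM in the livers and 6.29 in the kidneys on average, with a log2 difference of -0.97 ± 0.41 (limma adjusted p = 0.0453), or -0.21 (adjusted p = 0.594) after scaling by the median ratio, and Mcoln1 had one of -0.70 ± 0.17 (limma adjusted p = 0.00142), or 0.07 after that scaling.

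The 12 genes with CACGTG in a promoter window are given apart for the comparison of ADV with LD. In the liver 8 of the 12 had a higher ADV mean, with a median log2 difference of 0.11, and 2 had an unadjusted p under 0.05, Gla with a higher value and Mcoln1 with a lower one. In the kidney 6 of the 12 had a higher mean of log2 values, with a median log2 difference of 0.01. Without A115 the median was 0.31 and 5 of the 12 were called, all 5 higher, where 16.1% of all genes and 11 of the 48 were called higher, and with the GC trend removed 0 of the 48 were called. The median GC content of these 12 transcripts was 54.5%.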

How the data were processed

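Liver and kidney RNA of 8 mice, 4 per condition, was measured in 16 libraries, 1 per organ and mouse, and the replicates are separate animals. The authors trimmed adaptors, aligned the paired, stranded reads to mm10 with STAR 2.5.4b, dropped alignments of low mapping quality and counted over the exons of UCSC canonical genes with Homer, as their methods and processing notes say, and deposited FPKM per gene and library with no replicate pooled. Libraries were sequenced by different providers, and which provider sequenced which library is not given in the sources used here, so that an effect of provider cannot be told apart from the groups. Multiplied by exon length and library total, 100% of the FPKM values fell on steps of 0.5 fragments within a tolerance of 0.01, so the fragments were recovered for an alternative with limma-voom.

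Genes with a mean above 0.5 in FPKM times exon length in kilobases were tested as log2(FPKM + 0.1) with limma 3.58.1 in R 4.3.3 (moderated variances whose prior follows mean expression), with Benjamini-Hochberg adjustment over all genes tested and a threshold of 0.05. A log2 difference on that scale understates the change of low genes. The comparisons were ADV with LD in each organ, liver with kidney over all 16 libraries, and the difference of the ADV effects between the organs. Single values were also set against the exact two-sided permutation test over the 70 assignments of 8 mice, whose smallest p is 0.0286. Any gene whose groups do not overlap has that p, so for such genes it is no support beyond the lack of overlap. DESeq2 was not run, and limma-voom on the recovered fragments, which fall on steps of 0.5, was the only alternative based on fragments. The tests were checked on simulated data. Values in every mouse, or the range over the 8 mice of an organ for the organ difference, were printed for genes with an unadjusted p under 0.05 or no overlap, for the 3 most abundant and the 3 with the largest difference in each direction per organ, for the 3 with the largest organ difference each way, and for Tfeb and Mcoln1. Genes outside this rule, such as those called only without A115, were named after values were seen. The members and all gene lists were chosen with earlier results of these data known. Alternatives changed the pseudocount, the filter, the scaling, the variance prior and the libraries entered, removed a lowess trend of GC content (span 0.3) from each library, or entered the mouse as a replicate block.

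Both organs of a mouse carry its number, and the deviations of the paired libraries from their group means correlated over 12319 genes with r between -0.0242 and 0.553 across the 8 mice, so the block is justified by the shared animal. GC content came from GENCODE M21 transcripts, 42 of the 48 with a length within 10% of the deposited exon length. RefSeq promoter windows were matched by symbol for 43 of the 48 genes. Marker genes were listed for macrophages, Kupffer cells, lymphocytes, fibroblasts, hepatocytes, the proximal tubule, the distal nephron with the collecting duct, and podocytes. A result among the further membrane proteins is not reported here.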

Additional observations from a re-analysis of the deposited data

Results flagged for a closer look

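In each organ and condition the highest and the lowest of the 4 mice were tested with Dixon's ratio against its 95% critical value for 4 values. Over 192 groups of 4 values, 28 passed, where chance alone flags about 1 in 20 groups, or 9.6 here, and genes of 1 library are not independent of one another. No explanation was weighed.

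Liver A94 held 7 of them, each the highest ADV liver. Ctss was at 164 FPKM in A94, where the other 3 mice had at most 47.3, Lgmn at 74.8 (at most 31.7), Gla at 3.27 (at most 2.15), Hexa, the alpha subunit of hexosaminidase, at 45.8 (at most 26.1), Man2b1, the lysosomal mannosidase, at 23.3 (at most 15.6), Psap at 257 (at most 119.9), and Ppt1, which removes palmitate from proteins, at 18.0378 (at most 10.9). In the kidney of the same mouse, Ctss was at 204 FPKM (at most 47.6 in the others) and Ctso at 18.2 (at most 11.3).

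Kidney A115 held 7. In 6 it was the lowest ADV kidney, with Ctsa at 21.8 FPKM, Gaa at 3.01, Fuca1 at 21.02, Manba at 13.04, Naglu at 1.92 and Smpd1 at 5.29, where the other 3 mice had at least 74.0, 28.7, 80.4, 22.96, 15.8 and 38.8. Lamp2 was highest there, at 443.0 FPKM, where the others had at most 232.8.

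The LD kidney of L86 held 8, all of them the highest of the 4. Ctsc was at 7.41 FPKM, Ctsk at 6.60, Ctss at 41.3, Ctsz at 100.9, Ctsa at 68.6, Psap at 529.8, Npc2 at 35.2 and Grn at 59.6, where the other LD kidneys had at most 3.95, 3.49, 21.5, 80.2, 53.4, 416.4, 24.8 and 41.6. L86 also had the highest macrophage marker sum of the LD kidneys, at 301 FPKM against at most 139 in the other 3, and the part of that in these values was not tested. The 4 remaining flags were Npc1 in the LD kidney of L104 at 3.77 FPKM, Scarb2 in the ADV liver of A115 at 57.9, Gla in the LD liver of L63 at 1.49 and Gm2a in the LD liver of L86 at 20.9.

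The ADV effect on Fuca2 was flagged because every ADV liver lay above and every ADV kidney below the LD mice. The difference between the effects was 0.99 on the log2 scale, with an adjusted p of 0.792 in limma.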

How the results depend on the processing

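Of 694 single-gene values over 28 results under the alternatives, 671 kept their direction and their side of the threshold, 7 passed the threshold that they had missed, none was lost and 16 turned their direction. The genes printed for their abundance are not among these 28. Of them, Lamp1 and Lamp2 in the liver had -0.019 and -0.042 after scaling by the median ratio, Ctsd in the liver -0.010 without A94, and Psap in the kidney 0.55 without A115. In the liver 0 of the 48 genes were called under every alternative, and leaving out 1 mouse put the median log2 difference between 0.04 and 0.18 and the number with an unadjusted p under 0.05, which was 10, between 6 (without L63, L65 or L104) and 15 (without A91), where 7.75% to 17.3% of all genes had such a p. In the kidney, leaving out 1 mouse gave 0 to 13 genes called and a median between -0.18 and 0.24, with 1 to 22, in place of 3, at an unadjusted p under 0.05 (1 without L63, L65, L86 or A94, 2 without L104 or A75, 5 without A91, and 22 without A115, where 37.1% of all genes had such a p), and A115 alone gave the calls. There, 4 were called without A94 and A115, and 9 without A115 after scaling by the median ratio, 6 higher and 3 lower in place of 11 and 2. For the difference of the ADV effects between the organs, leaving out 1 mouse gave 0 to 6 genes called, 7 were called without A94 and A115 (5.25% of all genes), and 5 without A115 after scaling by the median ratio (3.22%). The cause was not tested.

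Tfeb, whose liver difference was 0.11, had -0.041 after quantile normalization, -0.062 without A94 and A115, -0.073 without A94 after scaling by the median ratio, and -0.043 (without A94) to 0.26 on leaving out 1 mouse. In the kidney, Tfeb (0.09) had -0.22 without A94 after scaling by the median ratio, -0.039 without A94 with the GC trend removed, and -0.26 to 0.93 on leaving out 1 mouse, being negative without L65 (-0.02), A75 (-0.17), A91 (-0.15) or A94 (-0.26). Galns (-0.42) had 0.17 without A94 and A115 and -0.62 to 0.065 (without A115) on leaving out 1 mouse, Mcoln1 (-0.18) 0.23 and -0.32 to 0.16 (without A115), and Npc2 (0.30) -0.032 without A94 after scaling by the median ratio and -0.086 (without A94) to 0.78. With the mouse as a replicate block 36 genes were called between the organs and 0 for the difference of the effects, against 35 and 0 without it, and 0 within each organ when both organs were fitted together, and the block changed no other call. Alternatives that leave out A94 or A115 together with another change, and all those that remove the GC trend, were chosen after seeing the data. The kidneys were less deeply sequenced than the livers, and the lowest genes are the least precise.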

Other observations

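Some genes of the further lists had large log2 differences between the ADV and LD livers. Ctse, an aspartic peptidase of endosomes, had a mean of 0.205 FPKM in LD and 1.25 in ADV, a log2 difference of 1.55 ± 0.63 (limma adjusted p = 0.398), and Tfec had 0.796 and 2.08 FPKM, a difference of 1.11 ± 0.35 (limma adjusted p = 0.342). Serpinb6a, a serpin entered in the list of cathepsin inhibitors, had 9.68 and 15.7 FPKM, a difference of 0.63 ± 0.23 (limma adjusted p = 0.381). None passed the adjusted test. In the kidney, Rnaset2a, a lysosomal ribonuclease gene whose reads may be shared with Rnaset2b, had 3.21 FPKM in LD and 13.7 in ADV, a log2 difference of 2.08 ± 0.34 with an unadjusted p of 0.000272 and an adjusted p of 0.9999 in limma.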
